A study of Mus musculus with 19 samples.

Results

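Whole spleen and whole heart, taken from the group given the atherogenic diet and distilled water (AD + DW), were set against each other on 6 Illumina MouseRef-8 BeadChips, 3 of each organ, out of the 19 arrays of the series. The arrays were chosen by their labels alone, which name the organ, the diet and the drink. The mice of both organs were male BALB/c, an inbred strain, aged 12 weeks, that had eaten the high-fat, cholesterol-containing diet for 6 weeks with distilled water to drink. The 6 spleen and heart arrays of the AD + OPP group, from mice of the same sex, strain, age and diet that drank oil palm phenolics (OPP) instead of water, served as arrays on which the organ contrast could be read again. By the methods of the study, the mice had been fasted overnight and bled from the heart before whole organs were frozen, the RNA samples of best integrity were selected, and arrays that stood apart in a clustering had already been removed. The labels number the replicates but do not say whether each is a separate animal. The methods call the samples biological replicates where they describe PCR on the same RNA. The p-values measure the spread between these samples, which may in part be technical.

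The spleen filters blood, clears old red cells with its red pulp macrophages, and holds B and T lymphocytes in its white pulp. In mice it also remains a blood-forming organ throughout adult life, in which red cell, granulocyte and platelet precursors divide. The heart is built of cardiomyocytes, which shorten by sliding myosin along actin in sarcomeres, are switched on at each beat by calcium, and draw most of their ATP from the oxidation of fatty acids in densely packed mitochondria. Around them lie the fibroblasts, capillary endothelium, pericytes and nerves of the heart wall.

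The deposited signals, linear bead intensities, were background corrected and quantile normalized over the 6 arrays. All levels below are log2 normalized signals, all differences are spleen minus heart on that scale, and all errors are standard errors (SE) of the limma fit with n = 3 arrays per organ. Of 24048 probes, 7288 were detected (detection p under 0.01) on all 3 spleens or all 3 hearts and were tested. A probe was called when its Benjamini-Hochberg adjusted p was under 0.05. Where a probe was detected on no array of the other organ, its fold is given only as a bound ("at least N-fold"), in which the dim organ's arrays took the lowest signal each of them detected, unless the probe itself was brighter. The fitted log2 difference of such a probe is taken against a background signal and is no estimate of the fold. In whole organs, fewer cells of a type and less RNA per cell cannot be told apart. A spleen array detected 5863 to 7352 probes and a heart array 6554 to 7324, with the lowest number of each organ on its replicate 3. Levels correlated at r = 0.942 to 0.968 between spleens, at 0.972 to 0.984 between hearts and at 0.362 to 0.4 between the organs.

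Some arrays had high signals of genes that mark tissues other than the labelled organ, and these are given first because they touch several results. All 13 exocrine pancreas genes with a named probe were detected on spleens 1 and 3. The level of Ctrb1, chymotrypsinogen B of the pancreatic acinar cell, was 15.89 on spleen 1, 5.77 on spleen 2 and 15.94 on spleen 3, against 5.59, 5.77 and 5.23 on the hearts. Spleens 1 and 3 were thus near the top of the scale, while spleen 2 lay among the hearts. The 16 probes of the pancreas list took 5.46%, 0.00887% and 11% of the background-subtracted signal of the 3 spleens and at most 0.00267% of that of a heart. In the AD + OPP group the same list had a mean level of 13.83 on spleen 1, 5.56 on spleen 2 and 5.48 on spleen 3. Only Cela1 and Cel, a pancreatic elastase and the bile salt-stimulated lipase, passed the detection rule. Both were called, but Cel (5.76 ± 1.73, adjusted p = 0.0132) not without spleen 1 (adjusted p = 0.0618). Cela1 read 15.13, 8.44 and 15.52 on the spleens and 5.23, 5.12 and 5.23 on the hearts (7.83 ± 1.52, adjusted p = 0.00115). Its bound, at least 101-fold higher for the mean of the spleens, was carried by spleens 1 and 3 and does not hold for spleen 2. In all, 41 probes were at least 8-fold (3 log2 units) brighter on both spleens 1 and 3 than on spleen 2, and 0 were so the other way round.

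Replicate 2 of the heart differed from hearts 1 and 3 in a small set of genes. By the same rule of 8-fold, 2 probes were brighter on both hearts 1 and 3 than on heart 2, and 6 were so the other way round. Ucp1, the uncoupling protein of brown fat, read 9.73 on heart 1, 4.93 on heart 2 and 10.86 on heart 3. Adipoq, the fat cell hormone adiponectin, read 8.75, 6.35 and 8.75. Both were thus lowest on heart 2, and Ucp1 was at background there and on the 3 spleens (4.84 to 5.02). In the opposite direction S100a8, a subunit of the neutrophil protein calprotectin, read 7.16, 12.65 and 7.50 on the hearts, with heart 2 far above the others. On the AD + OPP hearts, normalized with their own spleens, S100a8 read 13.49, 11.49 and 11.92, so a high level was not particular to heart 2. In the AD + DW group the neutrophil list took 0.0105%, 0.244% and 0.0202% of the signal of hearts 1, 2 and 3. On the AD + DW spleens it took 1%, 2.53% and 0.766%, and spleen 2 was the highest. Apoa2, an apolipoprotein made by the liver, read 6.71, 5.74 and 9.07, and was highest on heart 3. Among marker lists of hepatocytes, skeletal muscle, adipocytes, Schwann cells and neurons, and mesothelium and epithelium, 16 genes were tested, 12 were higher in the heart and 4 were not called. Of all tested probes, 39.9% were higher in the heart. Detected in the heart alone were, in the order of these lists, 3 of 4, 2 of 2, 2 of 7, 1 of 2 and 1 of 1 tested genes. The direction of those genes was largely set by the detection rule. What part these other tissues have in the results below was not tested. Without spleens 1 and 3, an alternative chosen after the data had been seen, 1 spleen stood against 3 hearts and was assumed to vary as they do. A probe was then tested if detected on that 1 spleen or on all hearts, and the median difference over all tested probes was 0.173. In that comparison the median was -7.76 for sarcomere, 2.995 for red cell, 5.37 for neutrophil, 3.29 for B cell and 4.44 for cell division genes. These medians include genes detected in 1 organ alone.

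**Figure D1:**
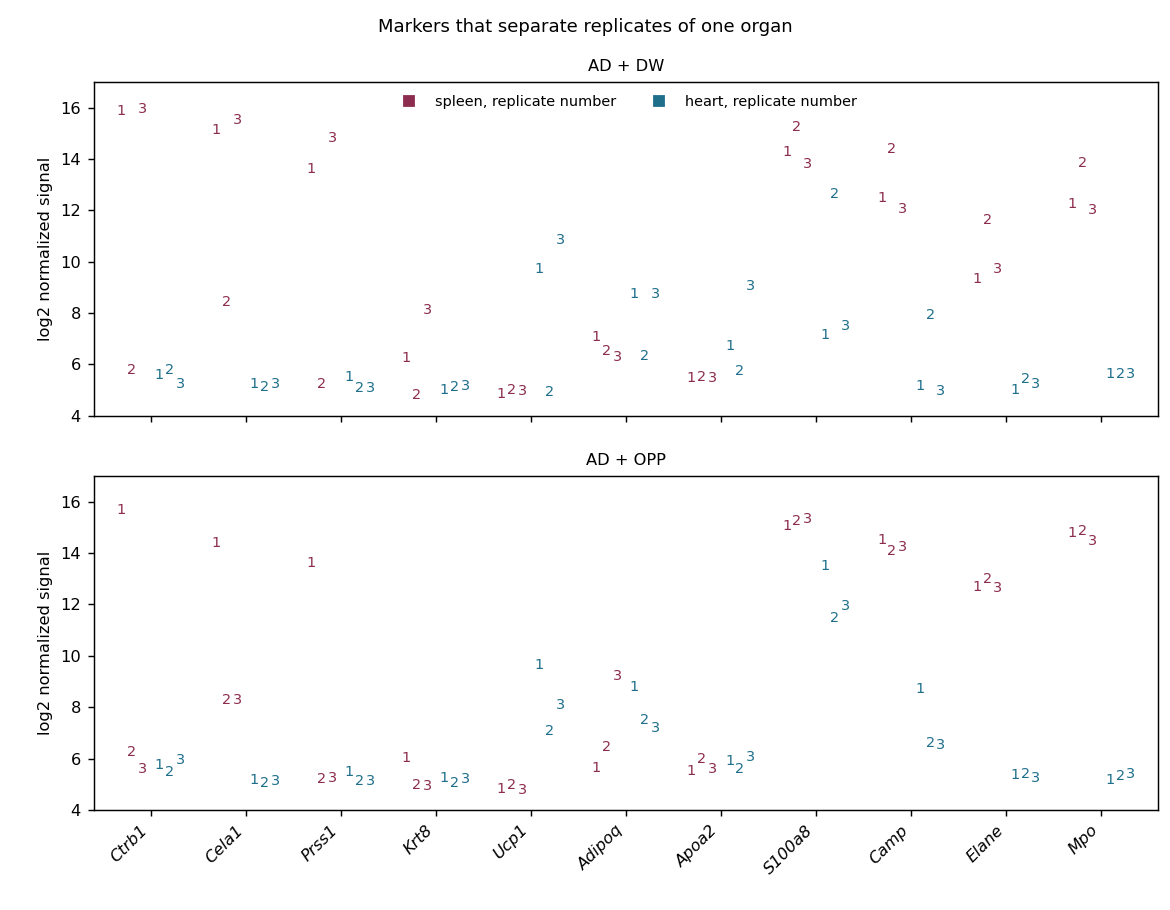
Log2 normalized signal (vertical axis) of 11 marker genes (horizontal axis) on each array, printed as its replicate number, with spleens in dark red and hearts in blue, for the AD + DW arrays (top) and the AD + OPP arrays (bottom). The pancreatic genes Ctrb1, Cela1 and Prss1 were high on AD + DW spleens 1 and 3 and on AD + OPP spleen 1. Ucp1 was low on AD + DW heart 2. S100a8 was high on that heart and on all AD + OPP hearts.

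Of the 7288 tested probes, 5443 (74.7%) were called, 2537 (34.8%) higher in the spleen and 2906 (39.9%) higher in the heart. With at least a 2-fold difference these were 1715 (23.5%) and 2060 (28.3%). The 3 spleens and the 3 hearts did not overlap for 5661 probes (77.7%). The median difference over all tested probes was -0.11. This balance depended on the arrays, since without spleen 3 the calls were 3103 higher in the spleen and 2895 in the heart. These shares are the background against which the counts of each gene group below are to be read. A probe that passed the detection rule in 1 organ only could hardly fail to differ, so the number of such genes stands beside the counts of each group as those detected in 1 organ alone. Over all tested probes they were 609 detected on all spleens and no heart, and 928 detected on all hearts and no spleen.

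**Figure D2:**
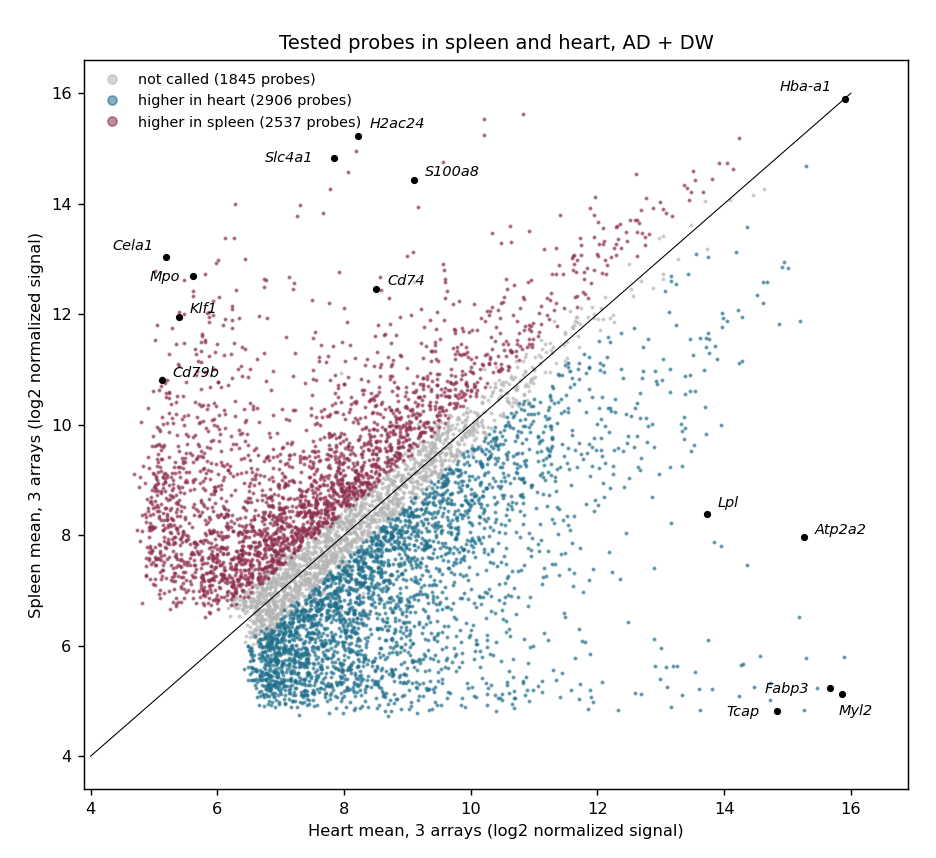
Mean log2 normalized signal of each of the 7288 tested probes in the 3 hearts (horizontal axis) and the 3 spleens (vertical axis) of the AD + DW group. Dark red probes were higher in the spleen (2537), blue probes higher in the heart (2906), and grey probes were not called. The diagonal line marks equal levels, and genes labelled in black such as Myl2 at the lower right and Mpo at the upper left lay far from it, while Hba-a1 lay on it at the top of the scale.

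The contractile genes of the cardiomyocyte had the lowest median of the gene groups plotted by group, far on the heart side. Of 24 sarcomere and Z-disc genes with a named probe, 22 were tested, 17 of them detected in the heart alone, and 21 (95.5%) were called higher in the heart and 1 in the spleen, with a median difference of -7.47 (-6.50 with single-organ genes set to their bounds). The 24 include Ldb2, which is not a Z-disc gene and which a match through a synonym put in place of the planned Ldb3. Myl2, the regulatory light chain of ventricular myosin, read 4.99, 5.03 and 5.38 on the spleens and 15.94, 15.83 and 15.83 on the hearts. Its spleen values were those of an undetected probe, and its heart values were among the brightest of any gene. It was at least 674-fold higher in the heart (-10.73 ± 0.17, adjusted p = 4.27e-10). Myl3, the essential light chain of the ventricle, read 4.80, 4.83 and 4.88 in the spleen against 15.41, 15.00 and 15.36 in the heart, at least 442-fold apart (-10.42 ± 0.17). Tnnc1 and Tcap, the calcium sensor of the thin filament and the cap of titin at the Z-disc, were at least 510-fold and at least 329-fold higher in the heart. Myh6, the fast alpha myosin heavy chain of the adult mouse ventricle, rose from an undetected 5.04 to 5.15 in the spleens to 13.22, 13.34 and 13.47 in the hearts. Myh7, its slow beta counterpart, read 11.08, 9.12 and 11.20 on the hearts and was lowest on heart 2. The skeletal actin Acta1 was lowest on heart 2 too, at 14.60, 12.70 and 14.13. Tnnt2, cardiac troponin T, was detected on 1 spleen (5.44, 6.32 and 5.65) and read 15.89 on every heart, where its raw signals of 53504, 61429 and 59244 lay near the upper end of the scanner's range.

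The exception in this group was Tpm1, a tropomyosin that muscle and other cells splice differently. Its probe read 8.47, 8.46 and 8.79 on the spleens and 7.99, 7.67 and 8.10 on the hearts, and was higher in the spleen (0.65 ± 0.19, adjusted p = 0.0101). The call was lost when arrays were scaled to a common median (0.45, adjusted p = 0.206) and without spleens 1 and 3. Some contractile and stress genes were measurable in the spleen but varied between spleens. Cryab, a small heat shock protein bound to the Z-disc, read 7.29, 6.64 and 8.47 there against 14.16 to 14.45 in the heart, and Pdk4, which blocks pyruvate entry to the mitochondrion, 7.08, 6.64 and 9.71 against 13.56 to 14.18. Spleen 3 was the highest for both, as it was for the stress-response gene Ndrg2 (6.92, 6.51 and 8.79). All 3 stayed far below every heart, and the part of the pancreatic signal in their spleen levels was not tested.

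The promoters of 2 of these genes are shown because they hold a CArG box, the serum response factor motif known from muscle genes. The sequences are the 250 bases before the transcription start in RefSeq (GRCm38.p6), 5′ to 3′ on the strand of the gene, with the motif in capitals. Actc1, the cardiac actin of the thin filament, was read on 2 probes. The brighter read 6.93, 6.36 and 6.29 on the spleens and 15.28, 15.28 and 15.00 on the hearts (-8.66 ± 0.21, adjusted p = 3.7e-09). Its promoter is chr2:114052876-114053125 on the minus strand, and the motif starts 47 bases before the start site. The Myl3 promoter is chr9:110763428-110763677 on the plus strand, with the motif 85 bases before the start.
Actc1: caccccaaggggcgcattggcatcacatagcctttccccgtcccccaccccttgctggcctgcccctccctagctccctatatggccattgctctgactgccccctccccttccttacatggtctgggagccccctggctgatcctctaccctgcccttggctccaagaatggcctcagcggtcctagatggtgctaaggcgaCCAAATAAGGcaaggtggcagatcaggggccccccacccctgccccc
Myl3: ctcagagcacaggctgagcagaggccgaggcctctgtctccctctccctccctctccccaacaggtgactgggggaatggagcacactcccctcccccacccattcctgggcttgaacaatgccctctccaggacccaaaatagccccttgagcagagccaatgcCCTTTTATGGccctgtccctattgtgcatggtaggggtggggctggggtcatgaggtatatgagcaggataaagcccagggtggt
Searched on both strands, the CArG box stood in 4 of the 17 sarcomere genes called and matched to a promoter (23.5%), in 1.42% of genes higher in the heart, in 1.39% of genes higher in the spleen and in 1.4% of 27025 promoters of that length. Of the genes called, 1834 of 2243 higher in the heart and 1581 of 2037 higher in the spleen matched a promoter by symbol. A match is a description of the letters and not of a bound site.

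**Figure D3:**
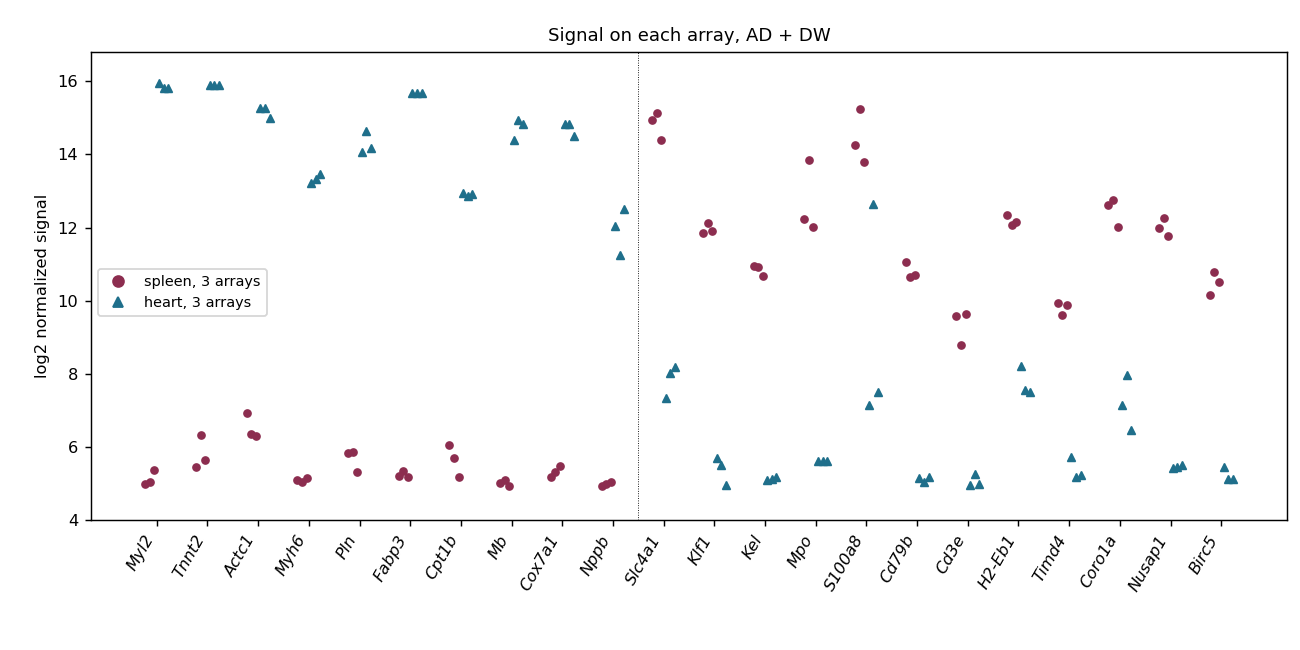
Log2 normalized signal (vertical axis) of 22 genes (horizontal axis) on each of the 6 arrays, with spleens as dark red circles and hearts as blue triangles. Genes left of the dotted line were higher in the heart and genes right of it higher in the spleen. The organs did not overlap for any of the 22, and heart 2 lay close to the spleens for S100a8.

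Of 20 calcium cycling genes with a probe, 11 were tested, 8 detected in the heart alone, and all 11 of these were called higher in the heart (median -5.66). Atp2a2, the SERCA2 pump that refills the sarcoplasmic reticulum, was measured in both organs at 7.98, 7.96 and 7.96 in the spleens and 15.13, 15.52 and 15.13 in the hearts. The 3 spleens were nearly identical, and the difference was 157-fold (-7.30 ± 0.17, adjusted p = 3e-09). Pln, phospholamban, which brakes that pump, read 5.84, 5.85 and 5.31 against 14.07, 14.65 and 14.18, at least 228-fold higher in the heart. The calcium store protein Casq2 was at least 31.5-fold and the L-type channel subunit Cacna1c at least 8.92-fold higher. Of 21 ion channel and gap junction genes, 12 were tested, 9 in the heart alone, and all 12 were called higher there (median -2.96). Among them Gja1, the gap junction protein connexin 43, was well detected in the spleen too, at 11.15, 10.87 and 11.03 against 13.40, 13.20 and 12.83 (-2.13 ± 0.19).

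Of 21 cardiac transcription factor genes, 12 were tested, 7 in the heart alone; 11 were called higher in the heart and 1 in the spleen (median -2.96). Ankrd1, a stretch-responsive cofactor, was at least 140-fold higher in the heart, whereas Gata4, the early cardiac GATA factor, was dimmer and at least 4.47-fold higher. Srf, the serum response factor itself, was detected on all arrays and differed less (8.95, 8.76 and 8.60 against 10.19, 9.98 and 10.01, -1.29 ± 0.17). Mef2c, a factor of both muscle and lymphocytes, was the gene called higher in the spleen (0.92 ± 0.29, adjusted p = 0.0149). Of the natriuretic peptide and receptor genes, 4 of 5 tested were higher in the heart, 3 of them detected there alone. Nppb, the B-type natriuretic peptide released by stretched cardiomyocytes, read 4.93 to 5.03 in the spleens and 12.03, 11.26 and 12.52 in the hearts, at least 44.2-fold apart.

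Genes for the oxidation of fatty acids were higher in the heart. All 27 tested genes of fatty acid uptake and oxidation, of 29 with a probe, were called higher in the heart (median -3.20), and 19 of the 27 were detected in at least 1 spleen. Fabp3, the fatty acid carrier of the cardiomyocyte cytosol, read 5.19, 5.34 and 5.18 against 15.67 on each heart, at least 588-fold higher (-10.43 ± 0.15). Cpt1b, the muscle enzyme that admits fatty acids to the mitochondrion, was at least 86.4-fold higher in the heart. Lpl, the lipase that frees fatty acids from lipoproteins at the capillary wall, was detected on every array, at 8.58, 8.05 and 8.49 against 13.74, 13.75 and 13.71. That was a 41-fold difference (-5.36 ± 0.19, adjusted p = 2.04e-08). Hadhb, an enzyme of the oxidation spiral, was bright in both organs, at 11.08 to 11.15 against 14.10 to 14.32 (-3.11 ± 0.16).

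In the tricarboxylic acid cycle and pyruvate entry list, 17 of 18 tested genes were higher in the heart, 2 of the 18 detected there alone (median -3.39), with citrate synthase, Cs, at 9.68, 9.87 and 9.49 against 12.73, 12.94 and 12.66. Idh3b, a subunit of isocitrate dehydrogenase, was the gene higher in the spleen (0.58 ± 0.21, adjusted p = 0.0317). Without heart 2, 0 genes of the list were called higher in the spleen. All 27 tested complex I genes were higher in the heart, by 1.76 to 4.46 (median -2.38), and only 2 of them were detected in the heart alone. Of 39 tested genes of complexes II to V, 37 were higher in the heart, 1 was higher in the spleen and 1 was not called, with 3 detected in the heart alone (median -2.29). The muscle subunits of cytochrome c oxidase, Cox6a2, Cox7a1 and Cox8b, had the 3 lowest differences of that list. Cox7a1 read 5.17, 5.32 and 5.47 in the spleens and 14.83, 14.83 and 14.49 in the hearts, at least 304-fold higher.

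Of 10 tested genes of creatine kinase, myoglobin and glycogen, 8 were higher in the heart and 1 in the spleen, with 6 detected in the heart alone and 1 in the spleen alone (median -4.97). Mb, myoglobin, read 5.01, 5.09 and 4.94 against 14.39, 14.94 and 14.83 and was at least 305-fold higher. Ckmt2, the creatine kinase of muscle mitochondria, was at least 141-fold higher. Gatm, which makes the creatine precursor and is abundant in pancreas, read 6.48, 6.47 and 7.66 in the spleens against an undetected 5.24 to 5.65, at least 1.41-fold apart. Glycolysis was mixed, with 15 of 19 tested genes higher in the heart, 3 higher in the spleen and 1 not called, with 4 detected in the heart alone and 1 in the spleen alone (median -2.11). The muscle enzymes Pgam2, Ldhb and Eno3 were at least 103-fold, 98.7-fold and 92.3-fold higher in the heart. The glucose transporter Slc2a3 (GLUT3) and the regulators Pfkfb4 and Pfkfb3 were higher in the spleen, the first at 9.71, 10.09 and 9.09 against 6.04, 7.02 and 6.40 (3.14 ± 0.31).

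Many of these enzymes exist as a muscle form and a form used elsewhere, so the organs can be compared within a protein. Of 30 such pairs, 16 had both members tested. In 7 pairs the muscle form was called higher in the heart and the other form higher in the spleen, in 4 both were higher in the heart, in 1 both were higher in the spleen, and in 4 at least 1 member was not called. The reverse arrangement occurred in 0 pairs. Among the 7 opposed pairs, Myl3, Myh6, Slc2a4 and Gata4 were detected on no spleen and Gata1 on no heart. Such members could hardly differ the other way, so these counts follow in part from the detection rule. With only probes detected on all 6 arrays, 1 opposed pair remained. Cox6a2 differed by -9.52 ± 0.28 and Cox6a1 by 0.85 ± 0.18 (adjusted p = 0.00207), although the latter call was lost under median scaling (0.37, adjusted p = 0.33). Atp2a2 differed by -7.30 and Atp2a3, the SERCA3 pump of blood cells, by 3.10 ± 0.20. The cardiac actin Actc1 stood at -8.66, and the cytoskeletal actin Actb at 2.15 ± 0.26. For myosin the heavy chain Myh6 was at least 117-fold higher in the heart and nonmuscle Myh9 stood at 2.13 ± 0.18, and the light chain Myl3 was at least 442-fold higher in the heart while Myl6 stood at 1.19 ± 0.17. The glucose transporters Slc2a4 and Slc2a3 and the GATA factors Gata4 and Gata1 completed the opposed pairs. Lactate dehydrogenase, phosphofructokinase and phosphoglycerate mutase were pairs with both forms higher in the heart, such as Ldhb (at least 98.7-fold) and Ldha (-1.20 ± 0.25). Pgam1, the broadly used mutase, was called (-0.83 ± 0.31, adjusted p = 0.0326) but not without spleens 1 and 3 (-0.13, adjusted p = 0.701), and Ldha was lost there too (-0.81, adjusted p = 0.0589). Fold values are compared here between organs for each gene, and not levels between genes.

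**Figure D4:**
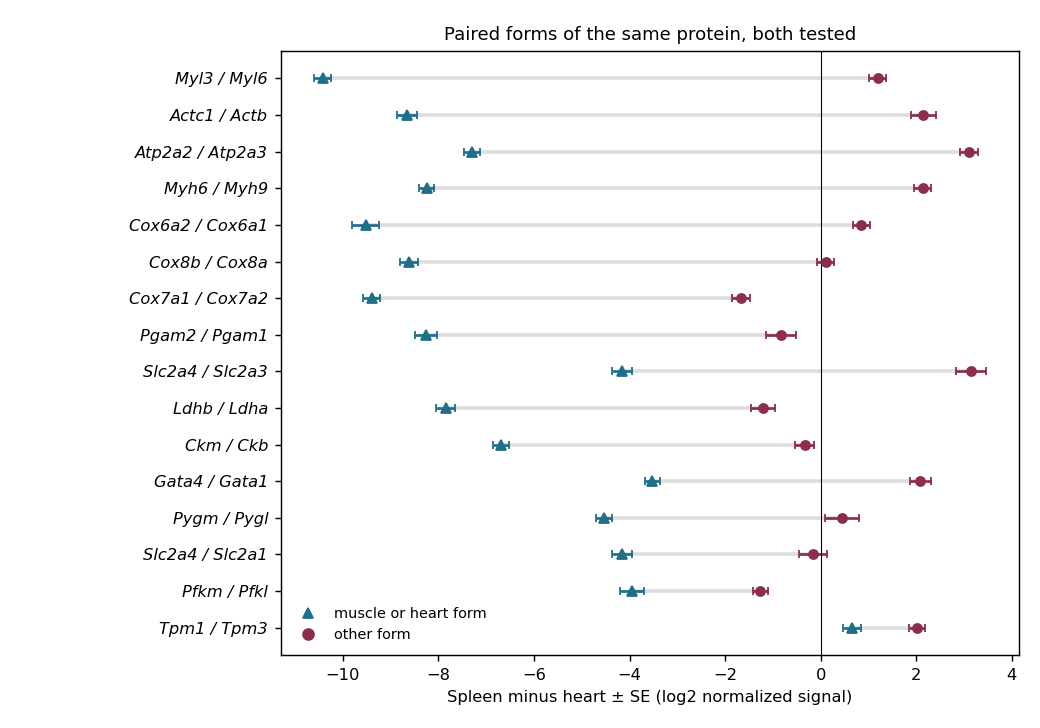
Spleen minus heart difference (log2 normalized signal, horizontal axis) with its SE for the 16 pairs of related proteins with both members tested (vertical axis). Blue triangles stand for the muscle or heart form and dark red circles for the other form. For 7 pairs the circle lay to the right of 0 and the triangle to the left, both called, and Tpm1 was the 1 muscle form to the right of 0.

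Most tested fibroblast, endothelial and smooth muscle genes were higher in the heart. Of 28 fibroblast and matrix genes with a probe, 23 were tested, 21 were higher in the heart and 2 were not called (median -1.60), with 4 detected in the heart alone. Lum, the collagen-binding proteoglycan lumican, read 4.91, 5.06 and 5.21 against 10.13, 10.02 and 9.45 (-4.81 ± 0.21). Dcn, the related decorin, was bright in both organs and lowest on spleen 2, at 10.27, 8.91 and 10.65 against 13.26, 13.78 and 13.11. Of 18 tested endothelial genes, 14 were higher in the heart and 3 in the spleen, with 5 detected in the heart alone and 1 in the spleen alone (median -1.83, or -1.17 with bounds). Emcn and Cdh5, of capillary and venous endothelium and of endothelial junctions, were among the former (-3.99 ± 0.23 and -2.60 ± 0.19). The 3 higher in the spleen were Stab2, the scavenger receptor of sinusoidal endothelium, at 9.32, 8.90 and 9.44 against an undetected 5.57 to 6.07, Plvap (1.82 ± 0.21) and Aqp1 (1.29 ± 0.24). Of 8 smooth muscle and pericyte genes tested, 6 were higher in the heart, led by Des, which cardiomyocytes share and which was the 1 gene detected in the heart alone (at least 12.9-fold). Acta2, smooth muscle actin, differed by -1.63 ± 0.28.

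**Figure D5:**
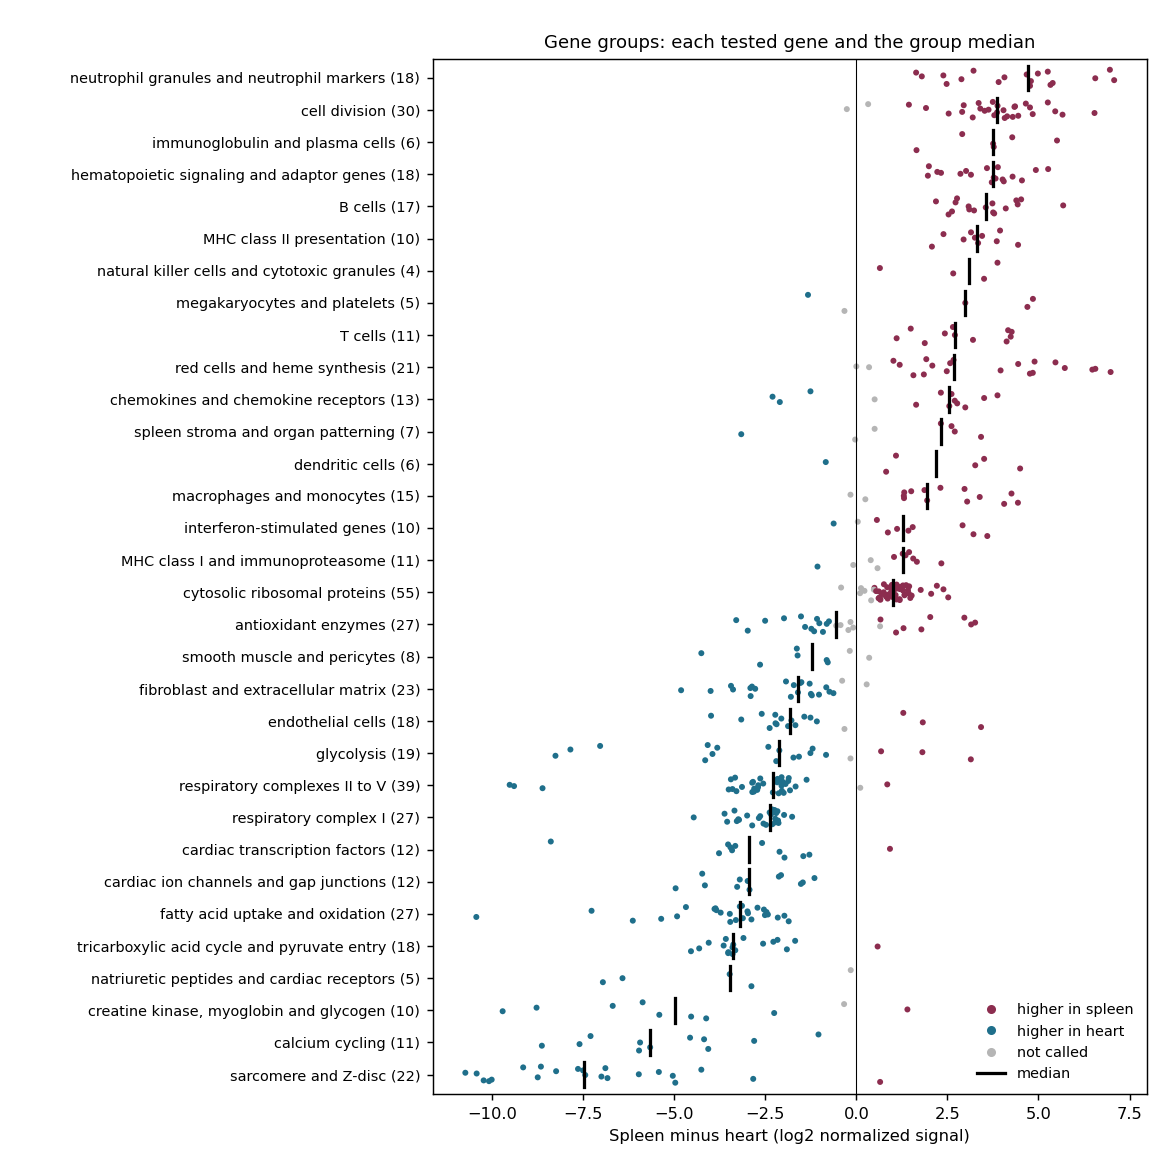
Spleen minus heart difference (log2 normalized signal, horizontal axis) of each tested gene in 32 gene groups (vertical axis, number of tested genes in parentheses), with the group median as a black bar. Dark red points were higher in the spleen, blue points higher in the heart and grey points were not called. The medians ran from 4.72 for neutrophil genes to -7.47 for sarcomere genes, and the antioxidant enzymes lay on both sides of 0.

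Most tested red cell genes were higher in the spleen. Of 25 such genes with a probe, 21 were tested, 9 detected in the spleen alone, and 19 (90.5%) were higher in the spleen (median 2.67). Slc4a1, the band 3 anion exchanger of the red cell membrane, read 14.94, 15.13 and 14.39 on the spleens and 7.32, 8.03 and 8.17 on the hearts, a 126-fold difference (6.98 ± 0.27, adjusted p = 4.16e-08). Klf1, the master transcription factor of erythroid cells, read 11.84, 12.13 and 11.89 against an undetected 5.71, 5.51 and 4.96, at least 47.9-fold apart. Nfe2, a factor of red cell and platelet precursors, was at least 41.8-fold higher, and Tal1, an early factor of the same lineages, was measured in both organs (4.84 ± 0.22). Tfrc, the transferrin receptor that brings iron into erythroblasts, was measured in both organs (4.76 ± 0.26). Of the hemoglobin probes, Hba-a1 read 15.83 to 15.94 on all 6 arrays (difference 0.00 ± 0.15) with raw signals of 50963 to 66319 that were at or near the highest on each array, so its difference is not informative. Hbb-b2, below that limit, read 13.96, 14.11 and 14.07 against 13.44, 13.86 and 13.79, and was not called (0.35 ± 0.17, adjusted p = 0.0956). The globin genes share near-identical copies that a probe may not tell apart.

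Alas2, the erythroid enzyme that commits glycine to heme, read 13.30, 13.61 and 13.02 against 10.24, 10.96 and 10.72 (2.67 ± 0.23), and Fech, which inserts the iron, differed by 1.19 ± 0.17. Kel, the Kell blood group protease of the red cell membrane, read 10.94, 10.93 and 10.69 against an undetected 5.09, 5.13 and 5.17, at least 22.3-fold apart (5.72 ± 0.16, adjusted p = 7.07e-09). Its promoter is shown for a GATA factor motif, AGATAA, in capitals, 56 bases before the start (chr6:41704326-41704575, minus strand, same source).
Kel: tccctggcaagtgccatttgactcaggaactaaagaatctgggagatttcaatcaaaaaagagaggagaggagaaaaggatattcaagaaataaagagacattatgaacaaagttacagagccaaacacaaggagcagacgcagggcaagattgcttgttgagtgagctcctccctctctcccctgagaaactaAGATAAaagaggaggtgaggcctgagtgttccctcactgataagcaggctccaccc
Searched on both strands, AGATAA stood in 5 of the 13 red cell genes called and matched (38.5%), in 6.7% of genes higher in the spleen, in 5.4% of those higher in the heart and in 10.3% of all promoters. Neutrophil genes held it at a like share (5 of 16).

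Granule genes of neutrophils and their precursors had the highest median of the gene groups plotted by group. Of 23 with a probe, 18 were tested, 5 in the spleen alone, and all 18 of these were higher in the spleen (median 4.72). Mpo, the myeloperoxidase of primary granules, read 12.23, 13.84 and 12.02 against an undetected 5.61 to 5.62 on the probe brightest by its mean over the 6 arrays, at least 80-fold apart (7.08 ± 0.41), and 2 further probes had the same direction. Camp, the cathelicidin of secondary granules, read 12.49, 14.39 and 12.05 on the spleens and 5.16, 7.92 and 4.97 on the hearts (6.96 ± 0.80, adjusted p = 3.54e-05). Ltf, lactoferrin, had the same shape, with 12.75, 14.24 and 11.98 against 5.40, 8.39 and 5.50. Spleen 2 and heart 2 were thus the highest of their organs. S100a8, bright in every spleen (14.26, 15.23 and 13.79), was called with a wide error (5.33 ± 1.21, adjusted p = 0.00296), and rose to 7.14 without heart 2. The primary granule proteases Elane and Prtn3 were undetected in every heart, heart 2 included. Without hearts 1 and 3, chosen after the data had been seen and leaving 1 heart, the median of the 18 tested neutrophil genes was 2.68.

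Elane, neutrophil elastase, read 9.33, 11.61 and 9.71 against 4.99, 5.45 and 5.25, at least 14.3-fold apart (4.98 ± 0.50, adjusted p = 1.3e-05). Prtn3, proteinase 3, read 9.68, 11.96 and 9.24 against 4.81, 4.89 and 5.02, at least 15.2-fold apart (5.39 ± 0.58). Spleen 2 was the highest for both. Their neighbouring promoters, chr10:79886062-79886311 and chr10:79879417-79879666 on the plus strand, are shown for a motif of the ETS type known to bind PU.1, GAGGAAGT, in capitals, at 85 and 95 bases before the start.
Elane: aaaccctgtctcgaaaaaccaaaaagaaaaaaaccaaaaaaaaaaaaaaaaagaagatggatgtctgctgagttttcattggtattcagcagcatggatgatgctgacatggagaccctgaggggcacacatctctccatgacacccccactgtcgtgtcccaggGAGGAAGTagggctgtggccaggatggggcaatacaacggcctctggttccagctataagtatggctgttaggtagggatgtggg
Prtn3: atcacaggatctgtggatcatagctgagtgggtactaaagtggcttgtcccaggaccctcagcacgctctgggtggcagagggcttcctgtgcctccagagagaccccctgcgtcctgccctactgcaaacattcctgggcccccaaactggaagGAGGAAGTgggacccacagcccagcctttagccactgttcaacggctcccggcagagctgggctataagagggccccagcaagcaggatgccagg
Searched on both strands, GAGGAAGT stood in 4 of the 16 neutrophil genes called and matched (25%), in 3.67% of genes higher in the spleen, in 1.8% of those higher in the heart and in 2.44% of all promoters.

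Lymphocyte genes were close to undetected in the heart, so most of their differences are bounds. All 17 tested B cell genes, of 24 with a probe and with 15 detected in the spleen alone, were higher in the spleen (median 3.55, or 2.63 with bounds). The 24 include Ms4a2, which a match through a synonym put in place of the planned Ms4a1, so they may hold a gene of another cell type. Cd79b, a signaling chain of the B cell receptor, read 11.05, 10.66 and 10.71 against an undetected 5.15, 5.05 and 5.18, at least 21.6-fold apart (5.68 ± 0.17, adjusted p = 1.11e-08). Probes whose IDs name an immunoglobulin gene numbered 203, of which 113 were tested and 113 were higher in the spleen, 84 of them detected on no heart. The heavy constant mu probe read 13.17, 12.51 and 13.10 in the spleens and 7.49, 5.12 and 5.31 in the hearts, with heart 1 the highest of the hearts (6.95 ± 0.54). Immunoglobulin segments are near-identical in part, so single probes are uncertain. Mzb1, a chaperone of antibody secretion, differed by 5.51 ± 0.23, and Jchain, which joins secreted antibodies, was at least 6.44-fold higher.

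Of 22 T cell genes with a probe, 11 were tested and 11 were higher in the spleen (median 2.71, or 1.77 with bounds), 10 detected there alone. Cd3e, of the T cell receptor complex, read 9.58, 8.78 and 9.62 against 4.95 to 5.25, at least 7.76-fold apart. It was lowest on spleen 2, as were Il7r (8.51, 7.29 and 8.63) and Bcl11b (8.63, 7.30 and 8.18), the array on which neutrophil genes were highest. The 4 natural killer and cytotoxic genes tested, of 18 with a probe, were higher in the spleen, but all 4 were detected in the spleen alone. The call for Il2rb among them (0.65 ± 0.21, adjusted p = 0.0202) was lost without heart 1 (adjusted p = 0.0773) and without heart 2 (adjusted p = 0.0569).

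All 10 tested class II genes of 11 with a probe were higher in the spleen (median 3.30), with only 4 undetected in every heart. H2-Eb1, a class II beta chain, read 12.35, 12.08 and 12.16 against 8.22, 7.56 and 7.49 (4.44 ± 0.22, adjusted p = 1.62e-07), and Cd74, the invariant chain, differed by 3.94 ± 0.20. Of 11 tested class I and immunoproteasome genes, 7 were higher in the spleen, 1 in the heart and 3 not called, with 2 detected in the spleen alone (median 1.27). B2m, the light chain of class I, read 13.46, 13.47 and 13.26 against 12.09, 11.83 and 11.92 (1.45 ± 0.16), and Psme2, a proteasome activator subunit, was the gene higher in the heart (-1.07 ± 0.17). MHC genes are a family with similar sequences, so their single probes are uncertain.

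Of 15 tested macrophage and monocyte genes, 13 were higher in the spleen and 2 were not called (median 1.94), and only 4 were undetected in the heart. Timd4, an uptake receptor for dying cells on resident macrophages, read 9.94, 9.61 and 9.87 against an undetected 5.71, 5.16 and 5.24, at least 10.8-fold apart. Vcam1 and Slc40a1, the adhesion molecule and the iron exporter that are abundant on red pulp macrophages, differed by 4.06 ± 0.17 and 3.04 ± 0.19 and were measured in both organs. Lyz2 and C1qc, a lysozyme and a complement chain of macrophages, differed by 1.303 ± 0.218 and 1.31 ± 0.34. Of 6 dendritic cell genes tested, 5 were higher in the spleen, 3 of them detected there alone, led by the transcription factor Irf8 (4.50 ± 0.21), and Cd80 was higher in the heart (-0.84 ± 0.18). The chemokines that guide lymphocytes into white pulp, Cxcl13 and Ccl21a, differed by 2.70 ± 0.32 and 2.61 ± 0.24, and Ccl19, which does the same, was at least 3.9-fold higher. Ccl8, Cxcl14 and Ccl11, of 13 tested chemokine and receptor genes, were the 3 higher in the heart, and none of these was detected in a spleen, while 4 of the 9 higher in the spleen were detected in no heart. Of 7 spleen stroma and patterning genes tested, 4 were higher in the spleen, 1 in the heart and 2 were not called, with 2 detected in the spleen alone and 1 in the heart alone (median 2.32). Of 5 tested platelet genes, Pf4 and Ppbp (2.99 ± 0.22 and 4.70 ± 0.20) and Gp5, detected in the spleen alone (at least 14.1-fold), were higher in the spleen, whereas F13a1 was higher in the heart (-1.33 ± 0.41, adjusted p = 0.0155), a call lost without heart 2 (-0.92, adjusted p = 0.0587) and without spleen 1 (adjusted p = 0.0563). Coro1a, an actin regulator of all leukocytes, read 12.61, 12.75 and 12.01 against 7.14, 7.96 and 6.47 (5.27 ± 0.35). It was among 18 hematopoietic signaling genes tested and 18 higher in the spleen, 10 of them detected there alone (median 3.74, or 2.89 with bounds).

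Genes of cell division were bright in the spleen and mostly undetected in the heart. Of 41 with a probe, 30 were tested, 22 detected in the spleen alone, and 28 (93.3%) were higher in the spleen (median 3.87, or 2.81 with bounds). Nusap1, which bundles spindle microtubules, read 11.99, 12.26 and 11.76 against an undetected 5.43, 5.46 and 5.51, at least 49.6-fold apart (6.54 ± 0.18, adjusted p = 6.27e-09). Birc5, survivin of the chromosomal passenger complex, was at least 17.3-fold higher, and Pcna, the DNA polymerase clamp, was measured in both organs (2.53 ± 0.21). Gmnn and Ccnd2, an inhibitor of replication licensing and a G1 cyclin, were the 2 genes not called (-0.26 ± 0.24 and 0.32 ± 0.37). Ube2c, the ubiquitin-conjugating enzyme of the anaphase-promoting complex, read 8.57, 9.58 and 9.27 against 5.02, 5.21 and 4.97, at least 6.81-fold apart. Its promoter, chr2:164769679-164769928 on the plus strand, is shown because it holds CCAAT, the NF-Y motif often repeated in cell cycle genes, 5 times on either strand (overlapping matches counted as 1), at 228, 186, 155, 88 and 57 bases before the start.
Ube2c: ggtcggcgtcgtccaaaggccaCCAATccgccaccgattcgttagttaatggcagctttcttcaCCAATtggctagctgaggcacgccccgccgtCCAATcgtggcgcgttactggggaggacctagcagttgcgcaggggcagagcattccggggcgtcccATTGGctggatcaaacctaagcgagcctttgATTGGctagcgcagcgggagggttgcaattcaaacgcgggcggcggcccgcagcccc
In the promoters of the cell division genes called and matched, CCAAT on either strand stood in 16 of 26 (61.5%), and in 10 of 26 it stood 2 or more times (38.5%). The shares were 39.7% and 15.8% for genes higher in the spleen, 35.3% and 12.5% for those higher in the heart, and 34.5% and 10.4% for all promoters.

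Histone probes were higher in the spleen in several families, unevenly between them. H2ac24, a replication-dependent H2A gene, read 15.36, 15.67 and 14.67 on the spleens and 8.26, 8.58 and 7.85 on the hearts (7.004 ± 0.282, adjusted p = 5.05e-08), the largest difference of any probe with a gene symbol detected on all 6 arrays and higher in the spleen. Of the H2A family 6 of 8 tested probes were higher in the spleen (median 6.15), of H3 6 of 6 (median 2.91), of H4 5 of 10 (median 1.3) and of H2B 6 of 12 (median 0.69), while 2 H4 probes and both probes of the H2B gene H2bc4 were higher in the heart. The tested H1 probe, H1f2, was higher in the heart (-0.90 ± 0.16, adjusted p = 0.000633). The H3 probes H3c2, H3c4, H3c6 and H3c11 had heart means of 5.29, 5.73, 5.52 and 5.10, below the lowest signal detected on any heart (6.28). So had some H4 and H2B probes, such as H4c4 (5.36) and H2bc21 (5.42), and such differences are taken against background. The histone genes of a family are near-identical copies, so each family is to be read as a whole. Cytosolic ribosomal protein genes were bright everywhere, and 49 of 55 tested were higher in the spleen and 6 not called, with 1 detected in the spleen alone (median 1.01).

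Enzymes against oxidants lay on both sides, with 8 of 27 tested higher in the spleen, 13 in the heart and 6 not called, with 1 detected in each organ alone (median -0.55). Hmox1, which breaks down heme, read 11.96, 11.79 and 11.65 against 7.70, 9.52 and 8.41 (3.26 ± 0.38), and Gpx1, glutathione peroxidase, 13.60, 13.77 and 13.40 against 10.43, 10.71 and 10.73 (2.97 ± 0.18). Sod2, the superoxide dismutase of mitochondria, had the opposite order at 9.50, 9.64 and 9.63 against 12.53, 12.57 and 12.62 (-2.98 ± 0.15), as had Gsta4, which conjugates lipid aldehydes (-3.30 ± 0.24). Prdx1 and Sod1, of the cytosol, were not called (-0.09 ± 0.16 and -0.22 ± 0.19). Interferon-stimulated genes were higher in the spleen for 8 of 10 tested, 1 of them detected there alone (median 1.27), led by the antiviral gene Rsad2 at 12.39, 12.64 and 11.86 against 8.42, 8.97 and 8.72. The study normalized its quantitative PCR to 3 reference genes, for targets taken from the comparison of AD + OPP with AD + DW and not of organs. Those 3 genes differed between spleen and heart, Srsf9 by 1.94 ± 0.20, Hnrnpab by 1.44 ± 0.20 and Guk1 by -1.29 ± 0.22.

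The organ contrast was read again in the 6 AD + OPP arrays, which share no sample with the comparison above. There 6190 of 7879 probes (78.6%) were called, 3173 (40.3%) higher in the spleen and 3017 (38.3%) higher in the heart. Of the 2537 probes called higher in the AD + DW spleen, 2424 were tested, 2229 (92%) were called the same way and 3 the opposite way. Of the 2906 called higher in the AD + DW heart, 2798 were tested, 2604 (93.1%) were called the same way and 2 the opposite way. Among genes detected on all 6 AD + DW arrays, the difference was -7.30 in the AD + DW and -7.25 in the AD + OPP arrays for Atp2a2, and 6.98 and 6.88 for Slc4a1. It was -5.36 and -6.20 for Lpl, 4.44 and 3.85 for H2-Eb1, and 5.33 and 2.91 for S100a8. None of these differences between drinks passed the interaction test over all 12 arrays. In that test 948 of 8152 probes had an unadjusted p under 0.05, which is a larger share than 0.05 of the probes. After adjustment 1 of the 8152 probes (0.0123%) passed an adjusted p of 0.05. That count rested on the arrays used. It was 0 without AD + DW spleen 1 or 3 and 287 without AD + DW spleen 2. The probe was that of Il1r2, the decoy receptor for interleukin 1 on neutrophils, named here because of its test result. It read 5.07, 5.85 and 5.51 on the AD + DW spleens and 9.06, 8.20 and 9.22 on the AD + OPP spleens when all 12 arrays were normalized together, and 5.18 to 5.90 on the hearts of both groups. The AD + OPP spleens thus stood apart from all other arrays, and the organ difference was smaller by 3.04 ± 0.38 in the AD + DW group (adjusted p = 0.0298).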

How the data were processed

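RNA of mouse spleen and heart was labelled as biotin cRNA and hybridised to Illumina MouseRef-8 BeadChips. The authors deposited bead signal intensities without normalization or background subtraction and a detection p-value per probe, read with BeadStudio 1.5.1.3 per the submitters' processing notes. A deposited table of rank invariant normalized intensities is a linear rescaling made within each organ and was used only to check that. The depth of an array has no count here, and precision is limited by the 3 arrays of each organ.

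Signals were background corrected with the detection p-values and quantile normalized over 6 arrays (neqc, offset 16, limma 3.58.1, R 4.3.3). Probes detected (p under 0.01) on all 3 arrays of an organ were fitted with lmFit and eBayes, two-sided, with Benjamini-Hochberg adjustment over all tested probes. Names came from the platform annotation given with the data, in which 19397 of 24048 probes had 1 symbol and 4651 none, and probes without a symbol were named by ID only. A gene of a list was read on the probe brightest by its mean over the 6 arrays, and histones were counted by probe. Genes are named as the largest differences among probes detected on all 6 arrays, the brightest among probes of 1 organ, the largest of each list, the paired forms and the markers of other tissues. Further list members are given as contrasts. The members, lists and pairs were chosen with earlier results of these data known. Deviations of same-numbered spleens and hearts from their organ means correlated at 0.15, 0.11 and 0.17, and those of other pairs at -0.11 to -0.037, so the replicate number was also fitted as a block. Alternatives covered background correction, scaling, the detection filter, the variance model, the methods' t-test, array weights and leaving out each array. The scripts were tested on simulated data.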

Additional observations from a re-analysis of the deposited data

Results flagged for a closer look

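The organ difference of the Il1r2 probe differed between the drinks by -3.04 (log2, AD + DW less AD + OPP; SE 0.383, limma interaction over 12 arrays, adjusted p = 0.0298 among 8152 probes). Without each of the 12 arrays in turn the value ran from -2.83 to -3.35 and the adjusted p from 0.000983 to 0.166. The exocrine pancreas genes, which the AD + OPP comparison does not use as a measure of the organs, had a mean level of 13.83 on AD + OPP spleen 1, against 5.56 and 5.48 on the other AD + OPP spleens and 5.21 to 5.26 on the AD + OPP hearts.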

How the results depend on the processing

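The alternatives were run on 173 probes picked by the naming rules and on the list medians, and none of these changed sign. Further list members given as contrasts, such as Mef2c, Idh3b, Prdx1 and Gmnn, were not among the 173 probes. The balance of calls did turn toward the spleen with only probes detected on all 6 arrays (median over all probes 0.0732) and without spleen 3 (3103 against 2895, median 0.0922). Without spleens 1 and 3 the median was 0.173, against -0.108 with all arrays. Among the 173 probes, 3125 values kept their call and 48 lost it. Among list medians 566 stayed within the spread between replicates and 209 moved beyond it. With only probes detected on all 6 arrays, 1596 were higher in the spleen, 1401 in the heart and 1 opposed pair remained of 7, since that filter removes probes of 1 organ. Scaling to a common median moved the median of all probes to -0.31, left 1704 and 2784 calls and put 38% of calls in the spleen in place of 46.6%. Without 1 array at a time, the spleen had 2340 to 3103 higher probes and the heart 2723 to 2895, 5811 to 6285 were called in the AD + OPP arrays, 7 to 8 pairs were opposed, and 36 to 39 of 39 lists had most tested genes on 1 side. The methods' t-test with adjustment called 2342 and 2633, and S100a8 was lost there (adjusted p = 0.0614). With the replicate block, 2555 and 2938 probes were called, and 6047 in the AD + OPP arrays. There 7 pairs were opposed, 38 lists had most tested genes on 1 side, and no call among the 173 probes changed. The drink interaction, whose alternatives were chosen after seeing the data, passed 2 probes with the replicate block (Il1r2 at adjusted p = 0.0459) and 0 to 287 without 1 array at a time. It passed 0 without AD + DW spleen 1 or 3, any 1 heart, or AD + OPP spleen 3, 4 without AD + OPP spleen 1 and 287 without AD + DW spleen 2. Signals near the upper end of the scanner, as for Hba-a1, Tnnt2 and Myl2, limit the differences that can be read, and dim probes carry bounds only. The cause of these changes was not tested.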
